A study of Mus musculus with 6 samples.

Results

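Nuclear receptors were followed in mouse 3T3-L1 cells given a flavonoid extract and in cells without it. The list held 41 receptor genes, chosen by symbol from the 46095 rows of the deposited table and not by their values. Of the 41, 16 were expressed, taken as an average of 1 FPKM or more across the 6 libraries (fragments per kilobase of transcript, scaled to the depth of the library), 15 were above 0 but under that limit, and 10 were listed at 0 in all libraries. A mean of at least 1 FPKM was reached by 39.0% of the list and by 24.9% of all rows.

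The 3 libraries of the first group came from adipocytes treated with Smilax glabra flavonoids at 0.125 μg/mL, a plant extract from a climber of the greenbrier family. The 3 libraries of the second group came from untreated adipocytes. Both groups are the same line, 3T3-L1, which derives from mouse embryo fibroblasts and can be turned into fat-storing cells in culture, and both were labelled 8 days after differentiation. The labels name no genotype change, and do not say how long the flavonoids were present or whether each library is a culture of its own. The p-values therefore rest on the spread between libraries, which may be technical.

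Nuclear receptors are transcription factors with a zinc-finger domain that binds DNA and a pocket that in many members binds a small fat-soluble ligand. Steroid receptors bind DNA as pairs of the same protein, while the thyroid hormone, retinoic acid, vitamin D, oxysterol and fatty acid receptors pair with a retinoid X receptor. Others, called orphans, have no established natural ligand. In fat cells the family controls differentiation, the storage and burning of fatty acids, and the daily rhythm of metabolism.

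The 2 receptors that passed the test were Vdr, the vitamin D receptor, which was lower with flavonoids, and Nr1h3, the oxysterol receptor LXR alpha, which was higher. Their promoters are shown because these are the members whose levels differed, each as 250 bases before and 50 after a RefSeq start site on GRCm38.p6, read on the minus strand, with GC boxes (GGGCGG on either strand) in capitals. The first is chr15:97908247-97908546 and the second, the farther upstream of a pair of overlapping windows, is chr2:91195067-91195366. Both lie inside the genes as annotated in GENCODE M21, whose upstream ends are at 97910630 for Vdr and 91202834 for Nr1h3. The sequence at those ends was not scanned.
Vdr promoter: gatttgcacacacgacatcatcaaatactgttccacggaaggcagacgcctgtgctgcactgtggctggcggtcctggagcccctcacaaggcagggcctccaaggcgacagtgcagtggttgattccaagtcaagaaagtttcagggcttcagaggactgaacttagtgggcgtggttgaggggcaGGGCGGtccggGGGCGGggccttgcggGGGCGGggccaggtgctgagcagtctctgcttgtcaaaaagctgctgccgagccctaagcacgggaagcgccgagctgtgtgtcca
Nr1h3 promoter: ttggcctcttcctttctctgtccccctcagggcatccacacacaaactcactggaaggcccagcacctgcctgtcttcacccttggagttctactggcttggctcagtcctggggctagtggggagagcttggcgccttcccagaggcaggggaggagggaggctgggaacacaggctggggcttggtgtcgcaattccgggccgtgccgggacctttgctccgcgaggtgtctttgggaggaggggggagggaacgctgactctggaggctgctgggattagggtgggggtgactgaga
The Vdr window held 3 GC boxes, with first bases at -63, -52 and -36 from the start site, and the Nr1h3 window held none. A GC box was found in 35.7% of the 32851 windows of this length in the table. Neither window held the nuclear receptor half-site AGGTCA on either strand, a sequence present in 16.3% of all windows. Of the 38 listed receptors that had an entry, 9 held it in at least 1 window. That count is per gene, and several receptors had more than 1 window, so it cannot be set against the share per window.

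Among the 16 expressed receptors 1 was called higher and 1 lower with flavonoids (adjusted p under 0.05 in a limma model of log2(FPKM + 1), Benjamini-Hochberg over 11464 genes). Over all tested genes 9.99% were called, 4.86% higher and 5.13% lower, and the 12.5% of receptors called lies close to that background. The median log2 change was -0.042 for the 16 receptors and -0.022 for all tested genes. Treated and untreated libraries did not overlap for 7 of the 16, 3 higher and 4 lower, against 34.3% of all tested genes. Because 1 is added before the logarithm, log2 changes of genes with few FPKM come out too small.

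**Figure D1:**
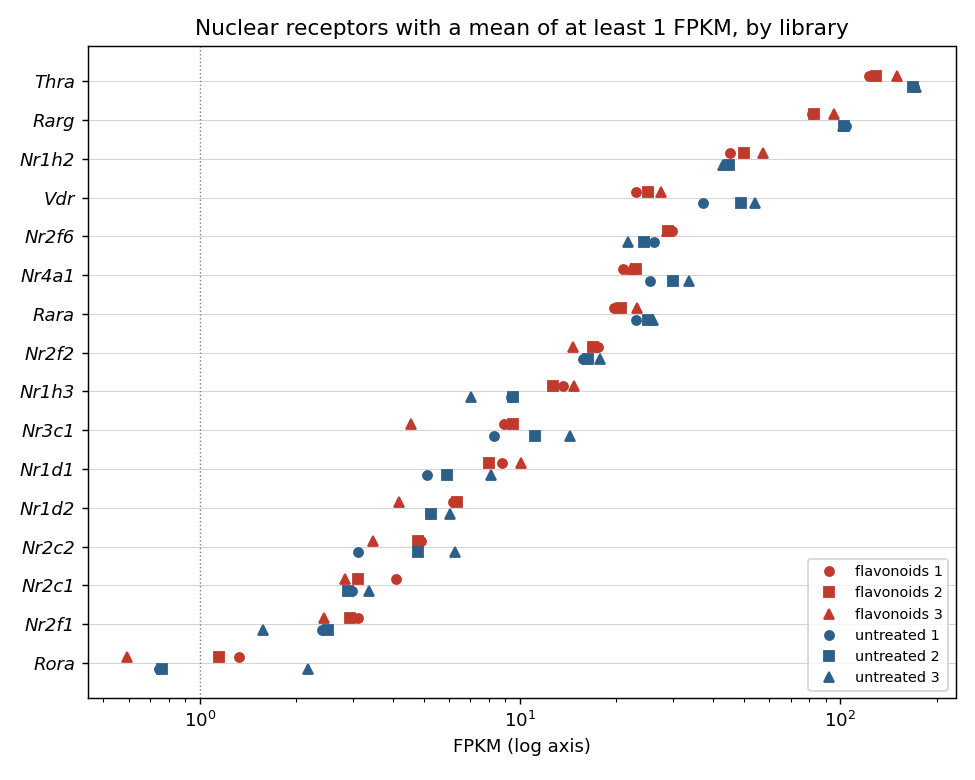
FPKM of the 16 expressed nuclear receptors in each library on a log axis, ordered by their mean, with flavonoid libraries in red above untreated libraries in blue and the dotted line at 1 FPKM. Thra lies highest, between 122 and 172 FPKM, and Rora lowest, between 0.594 and 2.18 FPKM.

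Libraries did not all stand equally close. The correlation of log2 values was 0.987 to 0.995 within the flavonoid group and 0.967 to 0.989 within the untreated group, where replicate 3 lay farthest from replicate 1. Untreated replicate 3 also exceeded the mean of untreated replicates 1 and 2 more in longer transcripts, with a Spearman rho of 0.733 over the 11464 tested genes and 0.662 over the 16 receptors, where genes share the library and are not independent replicates. In flavonoid replicate 3 the same measure was -0.726 over the 16 receptors and -0.071 over all tested genes. Receptors that moved past the threshold once this length trend was removed are named below, and for the lists the number called is given.

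The cells' labelled type was checked against marker genes. Of 15 genes of mature adipocytes 7 reached a mean of 1 FPKM, and Adipoq, which encodes adiponectin, measured 0.197 to 0.735 FPKM in flavonoid libraries and 0.0321 to 0.294 FPKM in untreated libraries, so the label is only partly borne out. All 11 listed preadipocyte or fibroblast genes reached that mean, and their summed level was 5241 to 5883 FPKM with flavonoids and 6528 to 6966 FPKM without. Vim was its largest part, at 1381 to 1602 FPKM with flavonoids and 1677 to 2068 FPKM without. Groups overlapped for Pdgfrl, at 642 to 658 and 524 to 657 FPKM, and Pdgfrb, at 96.7 to 116 and 75.3 to 116 FPKM. Col1a2 overlapped as well, and the other listed genes of this type were lower with flavonoids. The summed level of the mature adipocyte genes was 410 to 570 FPKM with flavonoids and 433 to 456 FPKM without. That sum joins Fabp4, at 149 to 194 FPKM with flavonoids and 177 to 251 FPKM without, with Lpl, at 178 to 306 and 144 to 192 FPKM. Of 6 macrophage genes Cd68 and Cd14 reached 1 FPKM, with a sum over the list of 24.6 to 27.1 FPKM in flavonoid libraries and 13.1 to 17.7 FPKM in untreated libraries, while Ptprc was listed at 0 in all 6. Most of that sum was Cd14, at 22.2 to 24.5 FPKM with flavonoids and 9.55 to 15.8 FPKM without. Cd68 overlapped between the groups, at 1.23 to 1.81 FPKM with flavonoids and 1.20 to 2.73 FPKM without. None of 5 endothelial or 5 epithelial genes reached 1 FPKM, and the epithelial sum was 0.291 to 0.380 FPKM with flavonoids and 1.16 to 1.48 FPKM without. In these bulk samples, fewer cells of a type and less RNA per cell cannot be told apart, and the part of cell makeup in the results below was not tested.

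Vdr had 23.1, 25.1 and 27.5 FPKM in flavonoid libraries, against 37.4, 48.9 and 54.0 FPKM in untreated libraries. Every treated library lay below every untreated one, and the untreated libraries were the more scattered. The means were 25.3 ± 2.23 FPKM with flavonoids and 46.8 ± 8.53 FPKM without (SD, n = 3 each), a ratio of 0.540 (log2 change -0.85, SE 0.15, limma adjusted p = 0.0125). Vdr lies on chromosome 15 at 97854425 to 97910630 (GENCODE M21 on GRCm38, as are the gene positions that follow), and it ranked 343rd by p among the tested genes. Its call was lost without flavonoids replicate 1 (adjusted p = 0.0690), flavonoids replicate 2 (0.0522) or untreated replicate 2 (0.0823), and the 18 alternatives gave 0.00146 to 0.0823. Cyp24a1, the enzyme that degrades active vitamin D and a classical target of this receptor, was listed at 0 in all 6 libraries.

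Nr1h3 had 13.6, 12.6 and 14.8 FPKM in flavonoid libraries, against 9.38, 9.49 and 7.05 FPKM in untreated libraries. All treated libraries lay above all untreated ones, with untreated replicate 3 the lowest of the 6. The receptor, which senses oxidised cholesterol and switches on cholesterol export and fatty acid synthesis, lies on chromosome 2 at 91184061 to 91202834. It averaged 13.7 ± 1.07 FPKM with flavonoids and 8.64 ± 1.38 FPKM without (SD, n = 3 each), a ratio of 1.58 (log2 change 0.61, SE 0.14, limma adjusted p = 0.0308). The call was lost with no filter on low values (0.0768), and without flavonoids replicate 1 (0.116), 2 (0.0791) or 3 (0.0957) or untreated replicate 2 (0.102), and the 18 alternatives gave 0.00538 to 0.116.

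Nr1h2, which encodes the second oxysterol receptor LXR beta, was the more abundant of the pair. It had 45.4, 50.1 and 57.2 FPKM in flavonoid libraries, against 44.0, 44.8 and 43.1 FPKM in untreated libraries. The groups lay close but did not overlap, and the difference did not pass the test (log2 change 0.20, SE 0.12, limma adjusted p = 0.319). Without flavonoids replicate 3 that change was 0.11. Within a library the level of Nr1h3 was 0.299, 0.252 and 0.258 of that of Nr1h2 with flavonoids, against 0.213, 0.212 and 0.163 without. These ratios do not overlap between the groups, and an exact permutation test of 3 against 3 cannot give a p below 0.1.

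**Figure D2:**
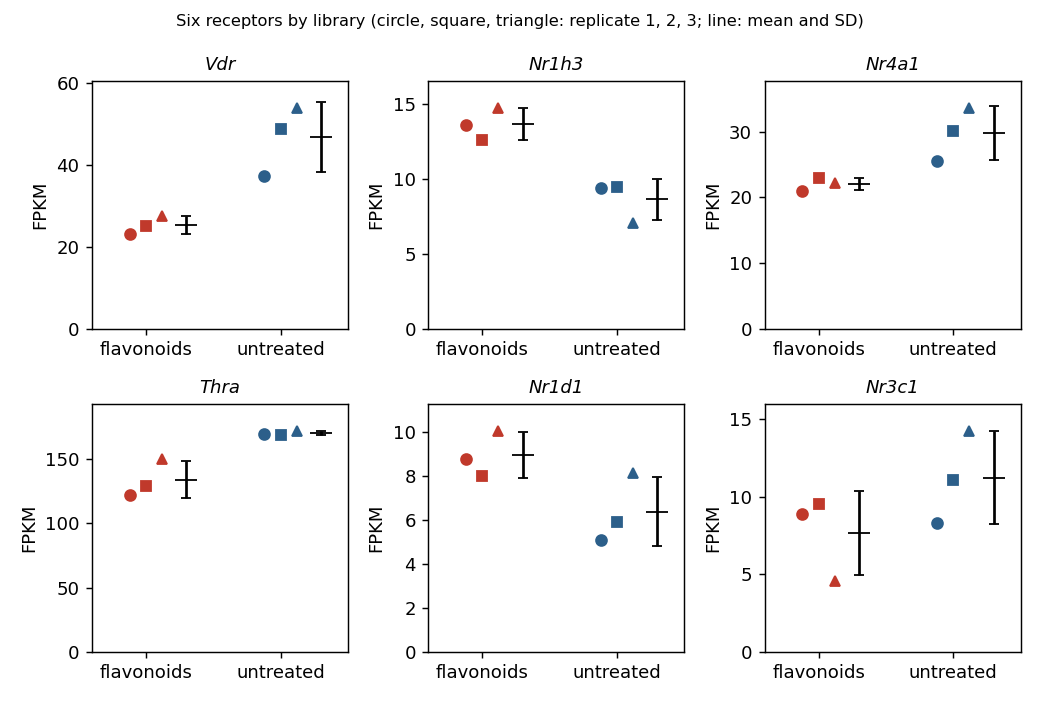
FPKM in each library for 6 receptors, flavonoids left of untreated, with the mean and SD of the 3 libraries beside the points. Vdr and Nr1h3 passed the test, Nr4a1 and Thra separated without passing it, and in Nr1d1 and Nr3c1 the groups overlapped.

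Thra, which encodes thyroid hormone receptor alpha, was the most abundant listed receptor. It had 122, 129 and 150 FPKM in flavonoid libraries, against 170, 169 and 172 FPKM in untreated libraries. The untreated libraries were nearly level and all lay above the treated ones, with flavonoid replicate 3 the nearest to them. The means were 134 ± 14.4 FPKM with flavonoids and 170 ± 1.67 FPKM without (SD, n = 3 each; log2 change -0.35, SE 0.12), and the difference missed the threshold (limma adjusted p = 0.102). It passed with quantile normalization (adjusted p = 0.0424) and with the length trend removed (0.0254), and the 18 alternatives reached up to 0.317. Thrb, its paralog, stayed between 0.0136 and 0.0399 FPKM.

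Thra shares its 3′ end with Nr1d1, which encodes the clock repressor REV-ERB alpha and is read from the opposite strand. On chromosome 11 Thra spans 98740638 to 98769006 and Nr1d1 98767932 to 98775333, and 263 exon bases are common to both. Reads from that stretch cannot be told apart without knowledge of strand, whose use in counting is not given in the sources used here. Nr1d1 had 8.76, 8.00 and 10.1 FPKM in flavonoid libraries, against 5.11, 5.92 and 8.12 FPKM in untreated libraries. The highest untreated library, replicate 3, lay just above the lowest treated one. The log2 change was 0.45 (SE 0.17, limma adjusted p = 0.136), and without untreated replicate 3 the gene was called higher (adjusted p = 0.0304), the lowest of 18 alternatives that reached 0.358. Nr1d2, which encodes REV-ERB beta, averaged 5.58 ± 1.21 FPKM with flavonoids and 5.51 ± 0.459 FPKM without (SD, n = 3 each).

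The retinoic acid receptors were represented by Rarg and Rara. Rarg, the gamma form, had 81.7, 83.0 and 95.3 FPKM in flavonoid libraries, against 104, 103 and 102 FPKM in untreated libraries. Its groups did not overlap, but the difference of -0.25 on the log2 scale (SE 0.11) did not pass (limma adjusted p = 0.191). Rara, the alpha form, averaged 21.2 ± 1.85 FPKM with flavonoids and 24.7 ± 1.55 FPKM without (SD, n = 3 each), with overlapping groups. The ratio of Rara to Rarg was 0.240 to 0.249 with flavonoids and 0.220 to 0.255 without. Rarb, the beta form and itself a target of retinoic acid, was at 0 in the flavonoid libraries and at 0.0125 to 0.0271 FPKM in the untreated ones, near the level of single fragments, and shares 1793 exon bases with Top2b on the other strand. Together Thra and Rarg made up 49.6% to 53.1% of the summed FPKM of the 16 receptors with flavonoids and 52.8% to 56.7% without.

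Nr4a1, an orphan receptor and immediate early gene also called NUR77, had 21.01, 22.9 and 22.2 FPKM in flavonoid libraries, against 25.5, 30.1 and 33.7 FPKM in untreated libraries. The treated libraries were tightly grouped below all untreated ones. Its log2 change of -0.41 (SE 0.13) missed the threshold (limma adjusted p = 0.0807). It was called lower without untreated replicate 1 (adjusted p = 0.0250) and with the length trend removed (0.0265), and the 18 alternatives reached up to 0.271. Its paralogs were scarce, Nr4a2 at 0.129 to 0.258 FPKM with flavonoids and 0.255 to 0.482 FPKM without, and Nr4a3 at 0 in the flavonoid libraries and 0.00747 to 0.0494 FPKM in the untreated ones.

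The COUP-TF orphans, which often repress and compete with other receptors for DNA, were all expressed. Nr2f6 had 29.8, 29.0 and 28.8 FPKM in flavonoid libraries, against 26.2, 24.4 and 21.8 FPKM in untreated libraries. The groups did not overlap, and the log2 change was 0.27 (SE 0.11, limma adjusted p = 0.165). Nr2f6 shares 1622 exon bases with Ocel1 on the other strand, whose mean was 7.48 FPKM. Nr2f2 averaged 16.4 ± 1.49 FPKM with flavonoids and 16.6 ± 1.07 FPKM without, and Nr2f1 2.84 ± 0.352 FPKM with flavonoids and 2.17 ± 0.515 FPKM without (SD, n = 3 each). The testicular receptors Nr2c1 and Nr2c2 averaged 3.35 ± 0.668 and 4.397 ± 0.806 FPKM with flavonoids, against 3.09 ± 0.258 and 4.73 ± 1.58 FPKM without (SD, n = 3 each). Nr2c2 shares 4590 exon bases with Mrps25, read from the other strand.

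Nr3c1, the glucocorticoid receptor gene, had 8.88, 9.53 and 4.56 FPKM in flavonoid libraries, against 8.29, 11.1 and 14.3 FPKM in untreated libraries. The groups overlapped, and the lowest and highest values were those of flavonoid replicate 3 and untreated replicate 3. The log2 change was -0.52 (SE 0.27, limma adjusted p = 0.247), and it was -0.23 without flavonoids replicate 3, -0.35 without untreated replicate 3 and -0.71 without untreated replicate 1. Rora, an activator that binds the same DNA elements as the REV-ERB proteins, showed the same extremes, with 1.33, 1.15 and 0.594 FPKM in flavonoid libraries, against 0.748, 0.761 and 2.18 FPKM in untreated libraries. Its groups overlapped too, and the change was -0.098 (SE 0.26, limma adjusted p = 0.845).

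**Figure D3:**
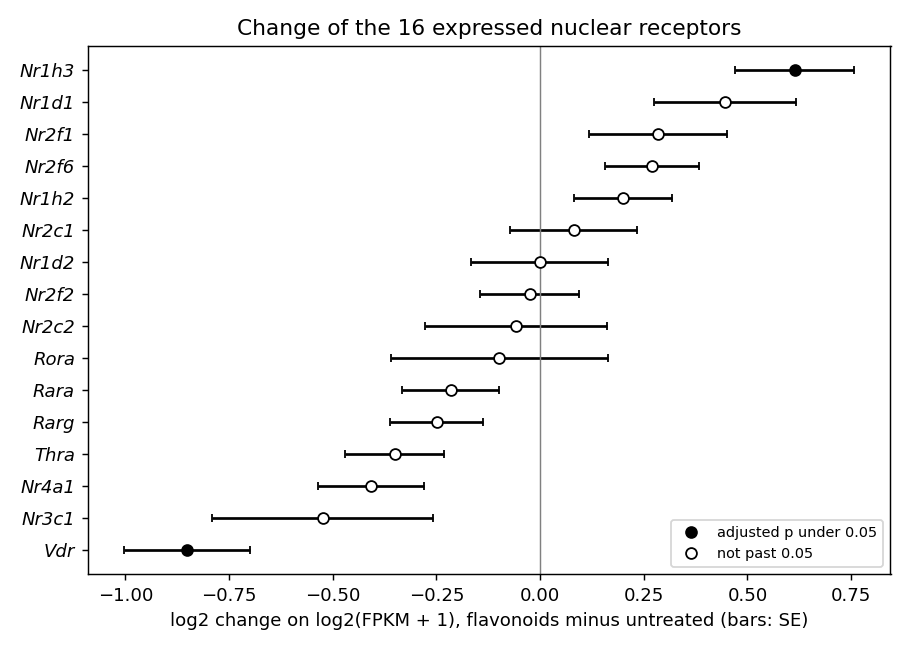
Log2 change of each expressed receptor on the log2(FPKM + 1) scale, flavonoids minus untreated, with its SE as bars. Filled points mark Nr1h3 and Vdr, the members past an adjusted p of 0.05, at 0.61 and -0.85.

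Rora was also the member nearest above the limit for expression, at a mean of 1.13 FPKM, and the nearest below were the germ-cell orphan Nr6a1 at 0.787 FPKM and Ppard at 0.756 FPKM. Nr6a1 had 0.581, 0.694 and 0.678 FPKM in flavonoid libraries, against 0.592, 0.621 and 1.55 FPKM in untreated libraries. Untreated replicate 3 alone passed 1 FPKM. Ppard, which encodes the widely expressed fatty acid receptor PPAR delta, had 0.596, 1.51 and 0.627 FPKM in flavonoid libraries, against 0.605, 0.372 and 0.824 FPKM in untreated libraries, with 1 treated library above 1 FPKM. Ppara, the receptor that drives fatty acid burning in liver, was detected in 2 libraries and reached at most 0.0105 FPKM. Pparg, which encodes PPAR gamma, is not on the receptor list and was read as an adipocyte marker. It had 11.7, 12.3 and 10.7 FPKM in flavonoid libraries, against 11.4, 11.6 and 9.32 FPKM in untreated libraries.

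Of the other members under 1 FPKM, the mineralocorticoid receptor gene Nr3c2 measured 0.359 to 0.606 FPKM with flavonoids and 0.345 to 0.645 FPKM without. The bile acid receptor gene Nr1h4 lay between 0.0391 and 0.0861 FPKM over all libraries. The oestrogen receptor genes Esr1 and Esr2, the related Esrrg, the liver factor gene Hnf4a and the steroidogenic factor gene Nr5a1 were above 0 in only 1 or 2 libraries each and at most 0.0576 FPKM. Listed at 0 throughout were Rxrg, Rorb, Esrrb, Pgr, Nr0b1, Nr0b2, Nr1i2, Nr1i3, Nr2e1 and Nr5a2, which include the progesterone receptor (Pgr), the xenobiotic sensors PXR and CAR (Nr1i2 and Nr1i3) and the corepressor-like receptor SHP (Nr0b2). For these 10, a count of 0 allows up to 3 fragments, which at the annotated exon length is 0.0103 FPKM for Rorb in the deepest library and 0.121 FPKM for Nr0b2 in the shallowest, a limit that covers counting error only. Nr1i3 is listed at 0 although 3304 of its exon bases are shared with Tomm40l on the other strand, which averaged 10.8 FPKM.

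Rxrb, the broadly expressed retinoid X receptor beta that pairs with many of the receptors above, reached at most 0.0919 FPKM. The alpha form, Rxra, is not on the receptor list. The levels of Rxrb and Rxrg therefore do not show whether these cells lacked a retinoid X receptor. Genes around Rxrb were also near 0, so its level is given with theirs. Among the 20 nearest protein-coding genes around Rxrb on chromosome 17 (34031812 to 34038399), 1 reached a mean of 1 FPKM, the histocompatibility gene H2-K1 at 32.2 FPKM. The median over 20664 protein-coding genes was 50% of neighbours, and 9.30% of genes had a share as low as that of Rxrb. Rps18, a ribosomal protein gene that every cell uses, lies among these neighbours and measured 0.0463 FPKM, and Tapbp, Vps52 and Daxx were listed at 0. Ppard, on the same chromosome at 28232700 to 28301474, had 5 of 20 neighbours at that level.

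Genes of the receptors' partner proteins, and then of their ligands and targets, were set against the 9.99% called over all tested genes. An unadjusted limma p under 0.05 was reached by 27.1% of all tested genes. With the length trend removed, 1284 genes were called higher and 1209 lower over all, against 557 and 588 as reported. Of 12 tested coactivator genes Pprc1, a relative of the PGC-1 coactivators, was called higher and 0 lower, with 12.6, 11.9 and 14.1 FPKM in flavonoid libraries, against 6.78, 7.73 and 9.99 FPKM in untreated libraries (log2 change 0.61, SE 0.15, limma adjusted p = 0.0397). All treated values lay above all untreated ones. The number of coactivators called was 2 without untreated replicate 3, with quantile normalization or with the length trend removed, and 0 without any 1 of the other 5 libraries. Ppargc1a, the inducible PGC-1 alpha, had 1.96, 1.89 and 1.09 FPKM with flavonoids, against 0.446, 0.572 and 1.08 FPKM without (adjusted p = 0.0840). Of 10 corepressor genes 0 were called by limma, also 0 at an unadjusted p under 0.05 and 0 by voom, with a median log2 change of -0.26 against -0.022 over all tested genes. Of 8 chaperone genes that hold steroid receptors ready for ligand 0 were called by limma and 0 by voom, with 4 at an unadjusted p under 0.05. These 4 went both ways, Hsp90aa1 and Dnajb1 lower and Stip1 and Fkbp4 higher. With the length trend removed 4 were called, with quantile normalization 2, and 1 each with TPM and without untreated replicate 1. The immunophilin gene Fkbp4 was nearest, at 138 ± 10.9 FPKM with flavonoids and 100.2 ± 14.9 FPKM without (SD, n = 3 each; adjusted p = 0.0683).

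Among 22 genes that make, break down or carry ligands, 9 were tested, of which 1 was called higher and 2 lower. All 3 belong to retinoid handling. Cyp26b1, which degrades retinoic acid, fell to 0.624, 0.676 and 1.09 FPKM in flavonoid libraries, against 1.97, 2.25 and 3.05 FPKM in untreated libraries (log2 change -0.93, SE 0.18, limma adjusted p = 0.0154). That log2 change moved with the pseudocount, to -1.51 at 0.1 and -0.36 at 5, and was -1.64 with voom on the recovered fragments. Cyp26b1 averaged 0.795 FPKM with flavonoids and 2.43 FPKM without, so it passed the filter of 1 FPKM only through the untreated group. Aldh1a1, which makes retinoic acid from retinal, fell to 92.0, 90.3 and 93.7 FPKM, against 148, 154 and 111 FPKM in untreated libraries (adjusted p = 0.0408). Dhrs3, which turns retinal back to retinol, rose to 35.0, 36.8 and 45.1 FPKM, against 27.9, 23.9 and 25.3 FPKM in untreated libraries (adjusted p = 0.0285). In all 3 genes the groups were apart.

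Of 10 listed genes controlled by retinoic acid receptors 5 were tested, with 1 higher and 2 lower, and this list shares Cyp26b1 and Dhrs3, among others, with the ligand list. Cyp26b1, counted among the lower ones, was tested only because of its level in the untreated group. Rarres2, which encodes the adipokine chemerin, fell to 26.2, 30.1 and 27.1 FPKM in flavonoid libraries, against 80.6, 70.8 and 49.8 FPKM in untreated libraries (log2 change -1.21, SE 0.17, limma adjusted p = 0.00591). The lowest untreated library was well above the highest treated one.

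Of 12 tested targets of PPAR alpha and delta 2 were called higher and 0 lower. Vnn1, a pantetheinase, had 73.7, 66.8 and 55.8 FPKM with flavonoids, against 20.6, 16.6 and 24.4 FPKM without (log2 change 1.63, SE 0.16, limma adjusted p = 0.00232). Plin2, a lipid droplet coat protein, had 329, 309 and 353 FPKM with flavonoids, against 152, 130 and 110 FPKM without (adjusted p = 0.00290). In both the groups were apart. Pdk4, a brake on glucose oxidation, did not pass (adjusted p = 0.499). The list's median log2 change was 0.16. Which PPAR, if any, acted on these genes was not tested.

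Of 9 tested LXR targets 0 were called by limma and 0 by voom, with a median log2 change of 0.073. An unadjusted limma p under 0.05 was reached by 2 of the 9, against 27.1% of all tested genes. With the length trend removed 2 were called, and without untreated replicate 3, 1. Abca1, the cholesterol exporter that is the best known of them, averaged 3.91 ± 1.22 FPKM with flavonoids and 3.70 ± 1.38 FPKM without (SD, n = 3 each; adjusted p = 0.884). The desaturase gene Scd2 was nearest to the threshold, at 170 ± 12.7 FPKM with flavonoids and 131 ± 16.8 FPKM without (SD, n = 3 each; adjusted p = 0.114). Of 3 tested thyroid hormone targets 0 were called by limma, 0 by voom and 0 at an unadjusted p under 0.05, and 1 was called without untreated replicate 1.

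Of 12 tested glucocorticoid receptor targets 1 was higher and 2 were lower. The number called was 7 without untreated replicate 1, 4 without untreated replicate 3, 2 without flavonoids replicate 3, 1 without flavonoids replicate 2, and 0 without flavonoids replicate 1 or untreated replicate 2. Calls over all tested genes were also the most without untreated replicate 1, with 875 higher and 827 lower. Mt2, a metallothionein that also answers to metals, had 306, 292 and 301 FPKM with flavonoids, against 180, 157 and 117 FPKM without (log2 change 1.004, SE 0.17, limma adjusted p = 0.00979). Glul, glutamine synthetase, had 55.9, 72.4 and 84.9 FPKM with flavonoids, against 111, 122 and 109 FPKM without (adjusted p = 0.0291), and the phosphatase gene Dusp1 averaged 62.9 ± 3.30 FPKM with flavonoids and 86.5 ± 7.67 FPKM without (SD, n = 3 each; adjusted p = 0.0413). The called members thus went both ways. Fkbp5 and Tsc22d3, the most used readouts of this receptor, were not called (adjusted p = 0.280 and 0.604), and the spread of Fkbp5 rested on untreated replicate 2, with 0.391, 0.388 and 0.571 FPKM with flavonoids, against 0.629, 4.22 and 0.652 FPKM without.

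Of 6 tested genes of the clock loop served by REV-ERB and ROR factors 2 were higher and 0 lower. Bhlhe40, a repressor also called DEC1, had 23.9, 26.4 and 25.0 FPKM with flavonoids, against 16.2, 15.7 and 15.5 FPKM without (log2 change 0.64, SE 0.11, limma adjusted p = 0.0102). Cry1, a core clock repressor, had 6.41, 4.83 and 5.79 FPKM with flavonoids, against 3.75, 3.46 and 3.70 FPKM without (adjusted p = 0.0486). Arntl, which encodes BMAL1 and is the direct REV-ERB target used most, averaged 6.87 ± 1.13 FPKM with flavonoids and 6.28 ± 0.528 FPKM without (SD, n = 3 each; adjusted p = 0.688).

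**Figure D4:**
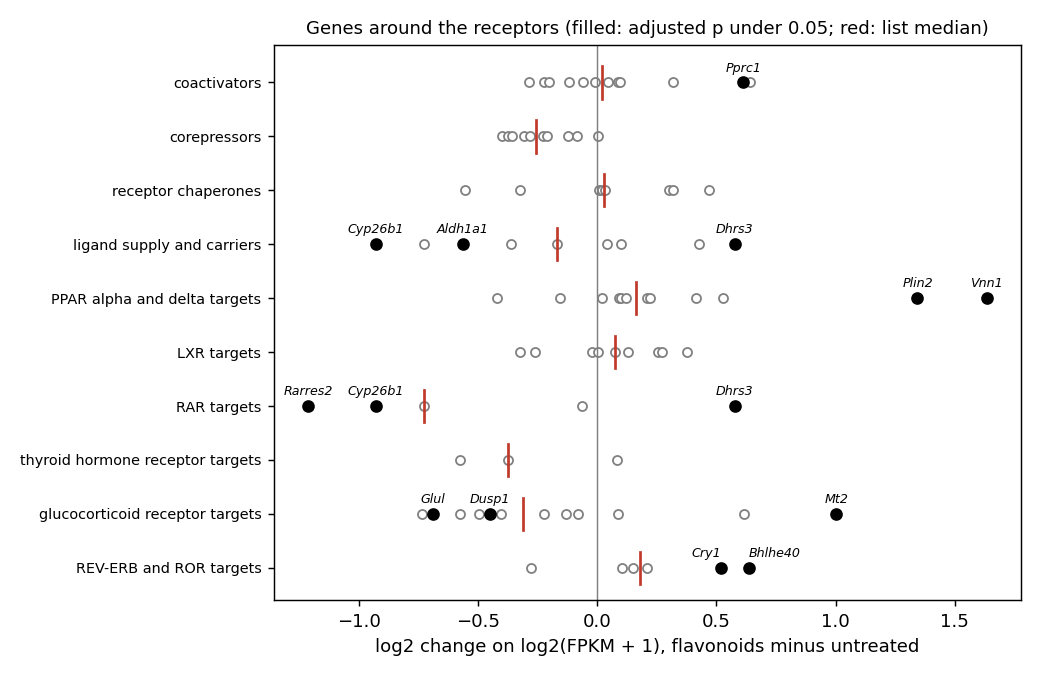
Log2 changes of the tested genes in 10 lists around the receptors, flavonoids minus untreated, with genes past an adjusted p of 0.05 filled and named and the list median as a red line. Vnn1 lies farthest to the right at 1.63 and Rarres2 farthest to the left at -1.21.

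Over these lists 12 genes were called, of which Plin2, Rarres2 and Vnn1 were called under all alternatives run for them and the other 9 lost their call under 2 to 9 of the 18. All 9 were lost without flavonoids replicate 1 (adjusted p 0.0552 to 0.193) and without untreated replicate 2 (0.0587 to 0.224), where fewer samples were left. Without flavonoids replicate 2, 8 were lost (0.0604 to 0.156), without flavonoids replicate 3, 5 (0.0739 to 0.118), without untreated replicate 1, 2 (0.0540 to 0.0542), and without untreated replicate 3, Cry1 (0.0598). With all libraries, 7 were lost with no filter on low values (0.0576 to 0.109), 2 with TPM (0.105 to 0.124), 1 without a variance trend (0.0560) and 1 with robust variance (0.0530). Calls were also gained. With the length trend removed 5 genes were called among PPAR targets, 5 in the ligand list, 4 among retinoic acid targets and 4 among glucocorticoid receptor targets. Calls over all tested genes rose as well under that setting, to 1284 higher and 1209 lower, against 557 and 588 as reported. Without untreated replicate 3 these lists had 4, 5, 4 and 4 called, and over all tested genes 633 were higher and 719 lower.

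**Figure D5:**
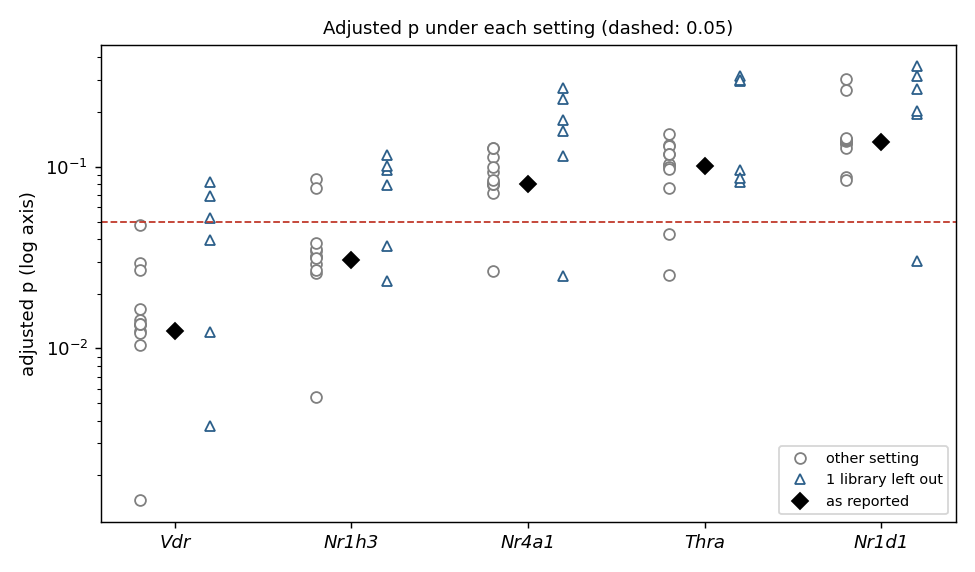
Limma adjusted p on a log axis for 5 receptors as reported (diamonds), with 1 library left out (triangles) and under the other settings (circles), with the dashed line at 0.05. Vdr and Nr1h3 lie below the line as reported and cross it when certain libraries are left out, up to 0.0823 and 0.116.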

How the data were processed

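RNA of 3 flavonoid-treated and 3 untreated samples was measured by sequencing. Per the labels' protocols, RNA was taken with TRIzol and libraries were made with a TruSeq kit. FPKM values, in a column for each sample, were deposited by the authors as 1 table, and 0 value columns were left unused. Per the submitters' processing notes, FastQC and HISAT2 were used with the mouse build mm10. Not given in the sources used here are tool versions, how fragments were counted, whether strand was used, and with which annotation.

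The 11464 genes averaging 1 FPKM or more across libraries entered a two-sided limma test (version 3.58.1, R 4.3.3) of log2(FPKM + 1), with the variance following the level, with Benjamini-Hochberg adjustment over all of them and a threshold of 0.05. An exact permutation test of 3 against 3 cannot go below 0.1. Whole fragments were worked back from the steps between FPKM values, within 0.005 fragments, for all 22235 genes above 0. Totals were 24871930, 26355863 and 24621562 fragments with flavonoids and 21952064, 23237722 and 25083868 without, and the 16 expressed receptors had 81 to 10790 fragments per library. Where a gene's fragments share a divisor the number is too small by it. No 2 libraries were copies, since the chi-square per degree of freedom within a group was at least 6.79.

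The 18 alternatives were a replicate block, a pseudocount of 0.1 or 5, a minimum mean of 0 or 5 FPKM, TPM, median-ratio and quantile scaling, variance without trend or robust, each library left out, each library's trend over the gene length implied by the steps removed, and voom on the fragments. The script was tested on simulated data. Positions are from GENCODE M21 and promoters from RefSeq, with an entry for 38 of the 41 receptors. The called receptors are given for every library, other expressed receptors by library or mean, the rest by range, and of each list up to 4 called genes of smallest p. Genes outside that rule (Cyp24a1, Pparg, the single marker genes, the neighbours of Rxrb and the uncalled list genes) were chosen after their values were seen. The receptors and lists were chosen with earlier results of these data known. Other steps ran in Python 3.11.15 (pandas 2.3.3, numpy 2.4.6), and figures were drawn with matplotlib 3.10.9.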

Additional observations from a re-analysis of the deposited data

How the results depend on the processing

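With 1 library left out at a time, the receptors called higher numbered 0 to 2 and those called lower 0 to 2, and over all tested genes 64 to 875 were called higher and 76 to 827 lower, the fewest without untreated replicate 2 and the most without untreated replicate 1. Without a filter on low values 0 receptors were called higher, and 317 higher and 324 lower over all genes. Quantile normalization called 2 receptors lower. With the length trend removed 3 receptors were lower, and 1284 genes were higher and 1209 lower over all. With the replicate number as a block 0 receptors were called higher and 1 lower (Nr1h3, adjusted p = 0.0861, lost its call and 6 of the 12 called list genes lost theirs), and 220 higher and 237 lower over all genes. Same-numbered libraries of the groups did not deviate together (correlations -0.143, -0.117 and -0.203 for numbers 1, 2 and 3), so the numbers do not pair the libraries. The cause of these differences was not tested, though fewer samples remain when a library is left out, and more genes are tested without a filter.

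The receptors near 0 changed sign. Nr2f2 had 0.032 on the log2 scale with the length trend removed and -0.072 to 0.047 with a library left out. Nr1d2 had 0.0034 at a pseudocount of 5, 0.0060 with median-ratio scaling, 0.10 with quantile normalization, 0.064 with the length trend removed and -0.093 to 0.16 with a library left out. Nr2c2 had 0.035 with quantile normalization, 0.077 with the length trend removed and -0.28 to 0.13 with a library left out. Nr2c1 ranged from -0.040 to 0.17 and Rora from -0.24 to 0.065 with a library left out, and Rora had 0.037 with quantile normalization. Rora fell under the filter without untreated replicate 3 and gave no value there. Of 497 results for single genes under an alternative, over 28 genes, 416 kept direction and side of the threshold, 60 lost a call, 5 gained 1 and 16 changed sign. Expression in 16 receptors became 18 at a minimum mean of 0.5 FPKM and 15 at 1 FPKM in every library.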
